A study of Homo sapiens with 12 samples.

Results

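The 37 genes described here encode proteins of homologous recombination and of the Fanconi anemia pathway for crosslink repair. They were chosen by name, as the rows of the count matrix whose Ensembl identifiers map to 37 listed symbols, with older aliases accepted, and they are 37 of the 57500 genes listed. All 37 had enough counts to be tested, among 15805 genes tested in all. They were read by sub-complex across 4 groups of OE33 cells, a human esophageal adenocarcinoma line, with 3 poly(A) RNA-seq libraries per group.

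Homologous recombination repairs a broken chromosome by copying the intact sister chromatid. Nucleases first trim the broken ends to single strands, mediator proteins then load a strand-exchange recombinase onto the single-stranded DNA, and helicases and structure-specific nucleases finally separate the joined molecules. The Fanconi pathway acts where the bases of opposite strands are covalently linked: its core complex attaches ubiquitin to the FANCD2 and FANCI pair, which opens the way to incision and then to recombination. Most of this repair takes place in S and G2 phase, when a sister chromatid is present, and transcripts of many of its genes vary with the cell cycle.

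Parental cells were untreated OE33. The rABS cells were OE33 survivors of 15 days of exposure for 20 minutes per day to 200 µM bile salts at pH 5.5. The rABS_shCtrl cells (shCtrl) were rABS cells stably transduced with a control hairpin, and the rABS_shAPE1 cells (shAPE1) were rABS cells stably transduced with a hairpin against APE1, the abasic-site endonuclease encoded by APEX1. Both transduced groups therefore carry the earlier exposure as well as a vector. The labels describe a single APE1 hairpin and no mock-treated group, so effects of the exposure and of the time in culture cannot be told apart, and neither can loss of APE1 and other targets of that hairpin. Between rABS and shCtrl, effects of the vector and of any further time in culture cannot be told apart either. The study text speaks of independent biological replicates. Whether replicates of a transduced group come from separate transductions is not given in the sources used here.

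Library totals ran from 15736087 to 23010377 counts, mitochondrial genes took 1.90% to 4.22% of them, and the lowest Pearson correlation between replicates was 0.987. The hairpin's target APEX1 (GRCh38, chromosome 14, 20455191 to 20457772) measured 52.9, 54.3 and 56.9 CPM (counts scaled to library size) in the Parental libraries, 81.8, 84.5 and 79.9 in the rABS libraries, 62.0, 56.5 and 60.9 in the shCtrl libraries and 4.42, 4.50 and 5.88 in the shAPE1 libraries. Its shAPE1 level was 8.25% of that in shCtrl, in the direction of the label (exact two-sided permutation test, p = 0.1, the smallest that 20 arrangements allow). Summed epithelial markers lay between 10930 and 11580 CPM in shAPE1 and between 12570 and 16540 in the other libraries. KRT19 was the highest of the 6 in every group (mean 11740 CPM in Parental and 5909 in shAPE1), and the markers moved in both directions. In rABS, KRT8 rose 2.22-fold and KRT18 1.35-fold, KRT19, CDH1 and ERBB2 fell, and EPCAM was not called. With the APE1 hairpin 1 of the 6 rose and 3 fell, and mean CDH1 went from 653 CPM in shCtrl to 838. Endothelial markers summed to at most 0.938 CPM. Of 6 fibroblast markers only COL1A1 had enough counts to be tested; it fell 7.08-fold in rABS, from 25.97 to 3.66 CPM (mean, edgeR adjusted p = 1.37e-17), and LUM had no count in any library. Of 6 leukocyte markers 3 were tested: CD14 rose 2.05-fold in rABS, from 2.85 to 5.75 CPM (edgeR adjusted p = 4.09e-05), LYZ fell in rABS (adjusted p = 0.0349) and rose 1.98-fold with the APE1 hairpin (adjusted p = 0.0113), and CSF1R was called in none of the 5 comparisons. Their summed level ran from 4.30 to 5.85 CPM in Parental, 5.73 to 8.73 in rABS, 6.25 to 7.37 in shCtrl and 8.17 to 10.1 in shAPE1. PTPRC and CD3E were at or near 0 in all libraries. The part of these markers in the changes of the 37 genes was not tested.

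Recombination and Fanconi genes were higher in the exposed survivors, partly lower again after control transduction, and lower still with the APE1 hairpin. Their summed level was 791 ± 31.3 CPM in Parental, 1472 ± 31.3 in rABS, 1185 ± 65.6 in shCtrl and 865 ± 43.6 in shAPE1 (mean and SD, n = 3 libraries per group). Replicate 2 had the lowest sum of its group in rABS (1443 CPM), shCtrl (1122) and shAPE1 (815), and the highest in Parental (823). Against Parental, 32 of the 37 rose in rABS, 1 fell and 4 were not called, beside 29.9% of all tested genes that rose and 29.9% that fell (edgeR quasi-likelihood test, Benjamini-Hochberg adjusted p under 0.05). Of these, 16 rose at least 2-fold, as did 10.1% of all tested genes. The median log2 change of the 37 was 0.88, and that of all tested genes was -0.01. The libraries of the 2 groups did not overlap for 31 of the genes that were higher and for the 1 that was lower, beside 31.5% of all tested genes higher and 31.6% lower without overlap.

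After transduction with the control hairpin, 19 of the 37 fell against rABS and 18 were not called, beside 18.6% of all tested genes that fell. None of the 37 rose in this edgeR test, where 17.9% of all tested genes did. At an unadjusted p under 0.05, 1 gene was higher and 21 were lower, beside 22.6% and 22.4% of all tested genes, and DESeq2 and limma-voom also called 0 rises. The 1 gene was RAD50, named after its values were seen, at log2 0.22 ± 0.09 (SE, edgeR adjusted p = 0.0643). The median log2 change was -0.30, and that of all tested genes was 0.02.

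With the APE1 hairpin, 26 of the 37 fell against shCtrl and 11 were not called, beside 18.8% of all tested genes that fell. None of them rose in the edgeR test, where 17.8% of all tested genes did, and 0 were higher at an unadjusted p under 0.05, with 28 lower, beside 21.1% and 22.8% of all tested genes. DESeq2 and limma-voom also called 0 rises. The median log2 change was -0.47, against -0.02 for all tested genes, and BLM and EME1 fell at least 2-fold, as did 3.01% of all tested genes.

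**Figure D1:**
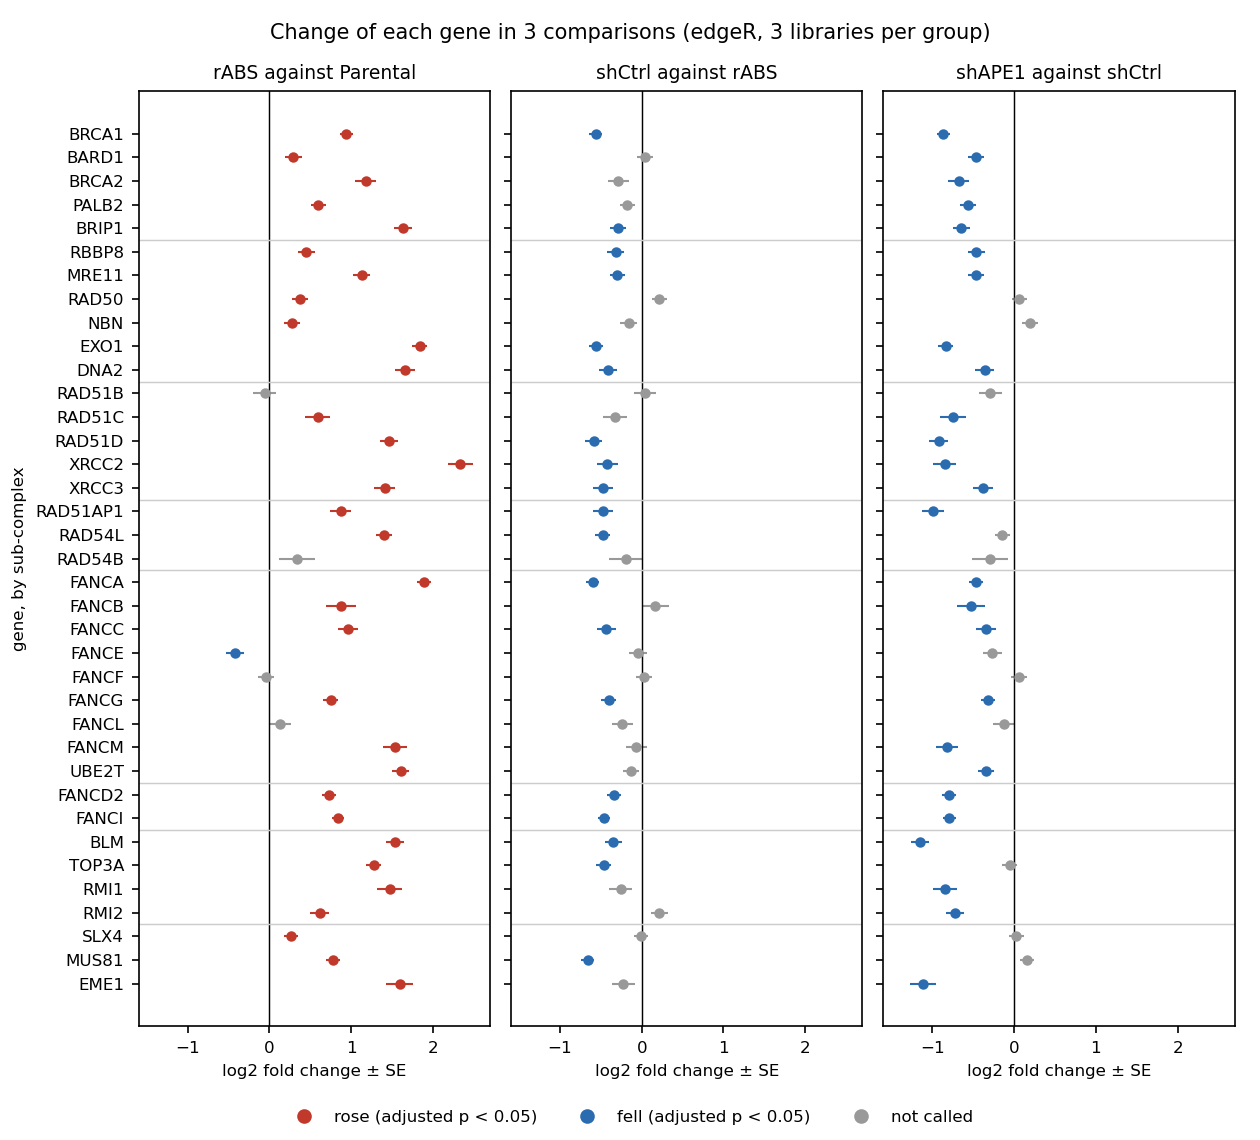
Log2 fold change with standard error of each of the 37 genes, by sub-complex, in 3 comparisons (rABS against Parental, shCtrl against rABS, shAPE1 against shCtrl). Red points rose and blue points fell at an adjusted p under 0.05, and grey points were not called. Most points lie right of 0 in the first panel (32 rose) and left of it in the others (19 and 26 fell).

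Read over the 3 comparisons in turn, 16 genes rose, fell and fell again. They come from every sub-complex except the structure-specific nucleases: BRCA1 and BRIP1, the resection genes RBBP8, MRE11, EXO1 and DNA2, the paralogs RAD51D, XRCC2 and XRCC3, RAD51AP1, the core genes FANCA, FANCC and FANCG, the pair FANCD2 and FANCI, and BLM. A further 10 rose, were not called after control transduction and fell with the APE1 hairpin, namely BARD1, BRCA2, PALB2, RAD51C, FANCB, FANCM, UBE2T, RMI1, RMI2 and EME1. Some other settings did call a fall after control transduction. For BRCA2 these were no filter (edgeR adjusted p = 0.00724), a replicate block (0.0492), the fit of 6 libraries (0.00996) and limma-voom (0.0446). RMI1 was called in the fit of 6 libraries (edgeR adjusted p = 0.0498). RAD51C was called without rABS replicate 1 (0.0155) and PALB2 without shCtrl replicate 1 (0.0317). In RAD54L, TOP3A and MUS81 a fall was called between rABS and shCtrl, and no further change was called with the APE1 hairpin. RAD50, NBN and SLX4 rose in rABS and were called in neither later comparison. The highest of the 4 group means lay in rABS for 28 genes, and the lowest in Parental for 23 and in shAPE1 for 13. The 3 comparisons share groups, so their calls are not independent of each other.

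**Figure D2:**
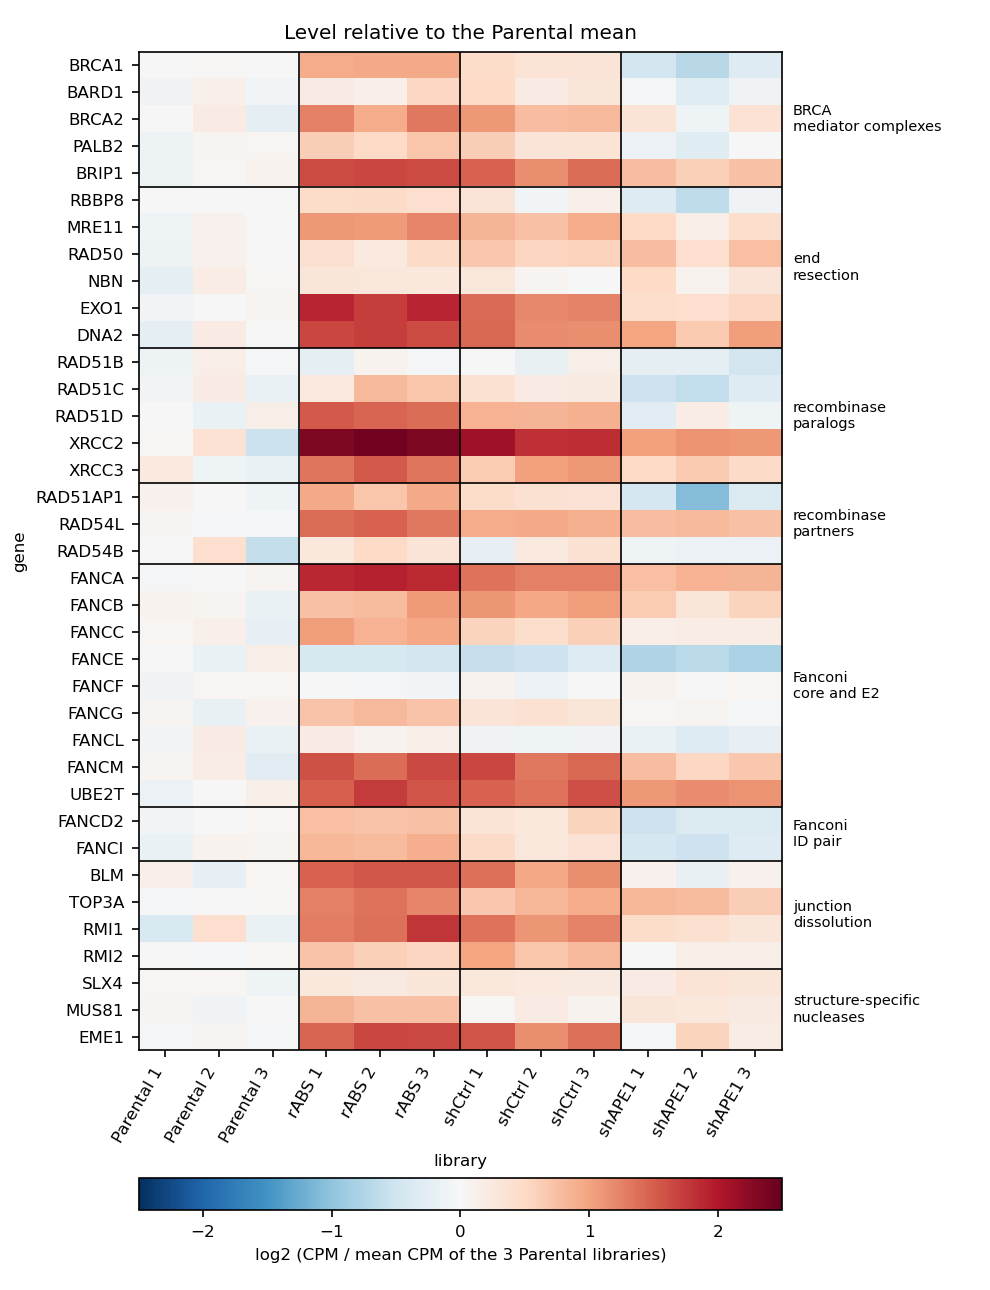
Log2 CPM of each gene (rows, by sub-complex) in each of the 12 libraries (columns), shown relative to the gene's mean in Parental. Red is higher and blue lower than Parental. The group mean is highest in rABS for 28 of the 37 rows, and FANCE is blue in all 9 columns right of Parental.

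The genes that rose in rABS include several whose RefSeq promoters hold an E2F-type word, the class of site bound by the E2F factors that drive S phase transcription. The words TTTCGCGC, TTTGGCGC, TTTCCCGC and TTTGCCGC were searched on both strands of the windows from 250 bases before to 50 bases after each listed start (GRCh38.p14). Of the 37 genes, 32 matched an entry in the table. DNA2, RMI2, NBN, FANCI and RAD54B had no entry. A word was found for 6 of the 32 (18.8%): XRCC2, FANCA, EXO1, RMI1, FANCC and FANCD2, beside 3.99% of 27305 genes with an entry. With only the first listed start of each gene, the shares were 15.6% (5 of 32) and 3.33%. The 6 genes all rose in rABS (median log2 1.66) and all fell with the APE1 hairpin (median -0.82). Of the 26 without a word, 22 rose and 1 fell in rABS (median 0.87), and 17 fell with the hairpin (median -0.46). The cell cycle homology word TTTGAA, on either strand, was found for 3 of the 32 (9.38%) and for 18.2% of all genes. The shares of all genes cover every gene with an entry, also those not tested here, and were not matched for base composition. These matches describe letters in a window and were not tested as binding sites.

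The 4 windows below belong to the genes with a word and the largest rises in rABS, shown 5′ to 3′ in the direction of the gene with the word in capitals. They cover chr7:152676092-152676391 (XRCC2, minus strand), chr16:89816598-89816897 (FANCA, minus), chr1:241847954-241848253 (EXO1, plus) and chr9:83980555-83980854 (RMI1, plus).
XRCC2: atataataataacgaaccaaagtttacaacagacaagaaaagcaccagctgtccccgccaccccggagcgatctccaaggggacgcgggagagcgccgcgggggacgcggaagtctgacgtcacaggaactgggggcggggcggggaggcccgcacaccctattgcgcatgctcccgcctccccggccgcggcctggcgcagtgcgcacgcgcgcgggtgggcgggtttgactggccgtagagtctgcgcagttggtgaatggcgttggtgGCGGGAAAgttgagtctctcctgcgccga
FANCA: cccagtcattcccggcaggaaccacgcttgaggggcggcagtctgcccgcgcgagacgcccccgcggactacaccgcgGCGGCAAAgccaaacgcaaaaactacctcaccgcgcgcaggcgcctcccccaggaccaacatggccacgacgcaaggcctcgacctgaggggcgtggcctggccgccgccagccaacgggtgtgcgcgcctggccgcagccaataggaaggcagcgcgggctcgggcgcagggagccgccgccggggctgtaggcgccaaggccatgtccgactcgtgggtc
EXO1: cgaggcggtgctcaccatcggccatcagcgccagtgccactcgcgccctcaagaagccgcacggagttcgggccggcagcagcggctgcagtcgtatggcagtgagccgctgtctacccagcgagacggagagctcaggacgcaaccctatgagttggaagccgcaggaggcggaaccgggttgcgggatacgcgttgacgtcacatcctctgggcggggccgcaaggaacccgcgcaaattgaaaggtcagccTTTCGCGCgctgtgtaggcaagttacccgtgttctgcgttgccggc
RMI1: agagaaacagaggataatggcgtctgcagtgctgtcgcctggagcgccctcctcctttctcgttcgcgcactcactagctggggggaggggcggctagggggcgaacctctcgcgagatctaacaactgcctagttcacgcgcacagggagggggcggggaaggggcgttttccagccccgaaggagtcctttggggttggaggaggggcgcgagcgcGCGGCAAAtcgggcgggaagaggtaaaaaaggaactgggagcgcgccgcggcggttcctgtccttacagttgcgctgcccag
The word begins 21 bases after the listed start in XRCC2, 172 bases before it in FANCA, 4 bases after it in EXO1 and 32 bases before it in RMI1. It reads TTTCGCGC on the gene's own strand in EXO1. In XRCC2 (TTTCCCGC), FANCA and RMI1 (both TTTGCCGC) it lies on the opposite strand, so the capitals show its reverse complement.

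The BRCA mediator complexes load the recombinase. All 5 genes rose in rABS (median log2 0.94) and all 5 fell with the APE1 hairpin (median -0.65), and 2 fell after control transduction. Beside this and the later sub-complex counts, 29.9% of all tested genes rose and 29.9% fell in rABS. The shares that fell were 18.6% after control transduction and 18.8% with the hairpin. The sub-complexes are small, and their counts were not tested against these shares. BRIP1 (chromosome 17, 61681266 to 61863521), the helicase that binds BRCA1, measured 9.48, 10.6 and 10.97 CPM in the Parental libraries, 32.1, 32.8 and 32.0 in the rABS libraries, 28.6, 23.3 and 27.2 in the shCtrl libraries and 17.6, 15.6 and 17.2 in the shAPE1 libraries. The 4 groups did not overlap, and shAPE1 remained above Parental. BRIP1 rose 3.10-fold in rABS (log2 1.63 ± 0.11, SE, edgeR adjusted p = 1.51e-14) and fell 1.57-fold with the APE1 hairpin (log2 -0.65 ± 0.10, adjusted p = 5.93e-06). Its fall after control transduction (log2 -0.29 ± 0.10, edgeR adjusted p = 0.0194) was not called without rABS replicate 2 (0.0589) or without shCtrl replicate 2 (0.144).

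BRCA1 (chromosome 17, 43044295 to 43170245), the tumor suppressor that steers breaks towards recombination, had a different end point. It was at 49.1, 50.4 and 49.7 CPM in untreated cells, 95.3, 96.6 and 95.5 in survivors (rABS), 68.8, 63.1 and 62.3 in shCtrl cells and 36.0, 30.9 and 39.6 in shAPE1 cells. Every shAPE1 library lay below every Parental library. BRCA1 rose 1.92-fold in rABS (log2 0.94 ± 0.08, SE, edgeR adjusted p = 8.76e-12), fell 1.48-fold after control transduction (adjusted p = 1.22e-06) and fell 1.82-fold with the APE1 hairpin (log2 -0.87 ± 0.08, adjusted p = 5.13e-10). Against Parental, shAPE1 was 1.40-fold lower (edgeR adjusted p = 1e-05).

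The remaining mediator genes also rose in rABS and fell with the hairpin. BRCA2, which carries the recombinase, rose 2.26-fold in rABS and fell 1.60-fold with the hairpin, with shAPE1 libraries at 43.8, 32.2 and 44.3 CPM around Parental libraries at 34.3, 39.8 and 29.2. PALB2, the bridge between BRCA1 and BRCA2, rose 1.51-fold and fell 1.48-fold. BARD1, the ring-finger partner of BRCA1, had the smallest rise of the complex, at log2 0.30 ± 0.10 (SE, edgeR adjusted p = 0.0105). It rested on rABS replicate 3, at 70.6 CPM beside 56.6 and 53.8, and was not called without it (adjusted p = 0.16). BARD1 fell with the hairpin by 0.47 ± 0.10 on the log2 scale (edgeR adjusted p = 0.000271).

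The resection genes trim the broken ends. All 6 rose in rABS (median log2 0.79), while 4 fell after control transduction and 4 fell with the APE1 hairpin. The exonuclease gene EXO1 (chromosome 1, 241847967 to 241895148) measured 16.6, 17.2 and 18.2 CPM in the Parental libraries, 64.6, 57.2 and 64.9 in the rABS libraries, 46.2, 39.7 and 41.3 in the shCtrl libraries and 23.4, 23.1 and 24.7 in the shAPE1 libraries. The 4 groups did not overlap. EXO1 rose 3.59-fold in rABS (log2 1.84 ± 0.09, SE, edgeR adjusted p = 1.87e-17) and fell 1.79-fold with the hairpin (log2 -0.84 ± 0.09, adjusted p = 6.63e-09).

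DNA2, the helicase-nuclease of long-range resection, was at 8.996, 12.1 and 10.4 CPM in untreated cells, 33.2, 34.7 and 32.5 in survivors (rABS), 28.4, 23.8 and 23.5 in shCtrl cells and 20.7, 16.5 and 21.7 in shAPE1 cells. It rose 3.16-fold in rABS (edgeR adjusted p = 1.36e-13). Its fall with the APE1 hairpin was smaller than that of EXO1, at log2 -0.36 ± 0.11 (SE, adjusted p = 0.0117), and the difference between the 2 genes was not tested. That call was lost without shCtrl replicate 1 (edgeR adjusted p = 0.0982) and without shAPE1 replicate 2 (0.109).

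MRE11, RAD50 and NBN form the complex that first binds a break, and their transcripts had different courses. MRE11, its nuclease, measured 19.7, 22.9 and 21.3 CPM in the Parental libraries, 45.4, 44.7 and 49.9 in the rABS libraries, 38.4, 35.4 and 40.3 in the shCtrl libraries and 29.9, 23.9 and 28.9 in the shAPE1 libraries. It rose 2.19-fold in rABS (log2 1.13 ± 0.10, SE, edgeR adjusted p = 1.29e-11) and fell 1.38-fold with the hairpin (adjusted p = 0.000254). Its fall after control transduction (adjusted p = 0.0133) was not called without rABS replicate 3 (edgeR adjusted p = 0.0721) or shCtrl replicate 2 (0.0754). RAD50, the long coiled-coil partner, rose 1.30-fold in rABS, and its mean did not decline afterwards: it was 1.57-fold above Parental in shAPE1 (edgeR adjusted p = 4.78e-07). Of its exonic bases, 79.7% are shared with the gene model AC116366.3 on the same strand, and how shared reads were treated is not given in the sources used here. NBN, the adaptor subunit, rose 1.21-fold in rABS, a call lost without Parental replicate 1 (edgeR adjusted p = 0.108) or rABS replicate 1 (0.0501). RBBP8, the activator of that nuclease, rose 1.37-fold in rABS and fell 1.38-fold with the hairpin. Its fall after control transduction (edgeR adjusted p = 0.0157) was lost without shCtrl replicate 2 (0.126) or replicate 3 (0.0541).

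The recombinase paralogs stabilise the filament on single-stranded DNA. Of these 5 genes, 4 rose in rABS (median log2 1.41 over all 5), 3 fell after control transduction and 4 fell with the APE1 hairpin. XRCC2 (chromosome 7, 152644779 to 152676165) had the largest rise of the 37, from 4.15, 5.29 and 2.83 CPM in Parental to 20.6, 21.8 and 20.5 in rABS. It read 17.8, 14.4 and 14.7 CPM in shCtrl and 8.34, 8.95 and 8.69 in shAPE1, with no overlap between any of the 4 groups. XRCC2 rose 5.04-fold in rABS (log2 2.33 ± 0.15, SE, edgeR adjusted p = 1.17e-14) and fell 1.80-fold with the hairpin (log2 -0.85 ± 0.14, adjusted p = 1e-05). It was still 2.08-fold above Parental in shAPE1 (edgeR adjusted p = 1.72e-06). Its fall after control transduction (adjusted p = 0.0102) was not called without shCtrl replicate 2 (edgeR adjusted p = 0.0548) or replicate 3 (0.054).

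RAD51D, which pairs with XRCC2 in the same complex, overlapped Parental again in shAPE1. It was at 11.8, 10.4 and 12.9 CPM in untreated cells, 33.8, 31.9 and 30.8 in survivors (rABS), 21.3, 21.0 and 21.7 in shCtrl cells and 9.69, 13.2 and 10.9 in shAPE1 cells. It rose 2.76-fold in rABS (log2 1.46 ± 0.11, SE, edgeR adjusted p = 7.26e-13) and fell 1.90-fold with the hairpin (log2 -0.93 ± 0.12, adjusted p = 8.68e-08). The shAPE1 and Parental libraries overlapped (log2 -0.05 ± 0.12, edgeR adjusted p = 0.753). RAD51C, shared by both paralog complexes, rose 1.51-fold and fell 1.69-fold, ending 1.41-fold below Parental (edgeR adjusted p = 0.0112). XRCC3, the partner of RAD51C, rose 2.66-fold and fell with the hairpin (edgeR adjusted p = 0.017), but its shCtrl and shAPE1 libraries overlapped. That fall was lost when any of 4 libraries was left out, shCtrl replicates 2 and 3 (0.0766 and 0.114, edgeR adjusted p) and shAPE1 replicates 1 and 3 (0.062 and 0.0609). XRCC3 shares 76.7% of its exonic bases with KLC1 on the opposite strand, and the strand setting of the counting is not given in the sources used here. RAD51B was called in none of the comparisons and ranged from 7.50 to 11.5 CPM over the 12 libraries.

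The recombinase partners act on the filament and on strand invasion. RAD54L, the DNA translocase that aids invasion, measured 14.2, 13.2 and 12.9 CPM in the Parental libraries, 35.6, 37.3 and 33.5 in the rABS libraries, 25.6, 26.1 and 24.8 in the shCtrl libraries and 23.1, 23.6 and 22.4 in the shAPE1 libraries. It rose 2.64-fold in rABS (log2 1.40 ± 0.10, SE, edgeR adjusted p = 4.77e-14) and fell 1.39-fold after control transduction (adjusted p = 9.94e-05). With the APE1 hairpin it was at log2 -0.15 ± 0.09 against shCtrl (edgeR adjusted p = 0.24). RAD54L shares 25.1% of its exonic bases with LRRC41 on the opposite strand. RAD51AP1, which stimulates strand pairing, was at 14.5, 13.2 and 12.5 CPM in untreated cells, 25.9, 21.8 and 25.9 in survivors (rABS), 18.5, 17.5 and 17.2 in shCtrl cells and 9.99, 6.36 and 10.4 in shAPE1 cells. It rose 1.84-fold in rABS and fell 1.99-fold with the hairpin (log2 -0.99 ± 0.13, SE, edgeR adjusted p = 4.48e-07), to 1.502-fold below Parental (adjusted p = 0.00062). RAD54B, the paralog of RAD54L, was low at 2.30 to 4.89 CPM and was not called. It shares 59.1% of its exonic bases with FSBP, and without Parental replicate 2 its rise in rABS was called (edgeR adjusted p = 0.0254).

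The Fanconi core complex and its ubiquitin-conjugating enzyme held genes that rose and 1 that fell. Of these 9 genes, 6 rose in rABS and 1 fell (median log2 0.87), 3 fell after control transduction and 6 fell with the APE1 hairpin (median -0.35). FANCA (chromosome 16, 89737549 to 89816657), a scaffold subunit, measured 19.2, 19.7 and 21.0 CPM in the Parental libraries, 74.0, 75.7 and 72.8 in the rABS libraries, 51.0, 48.0 and 47.6 in the shCtrl libraries and 33.5, 36.5 and 36.1 in the shAPE1 libraries. Replicates were close and no groups overlapped. FANCA rose 3.71-fold in rABS (log2 1.89 ± 0.08, SE, edgeR adjusted p = 7.86e-19) and fell 1.38-fold with the hairpin (log2 -0.47 ± 0.08, adjusted p = 2.28e-05). It shares 23.6% of its exonic bases with ZNF276 on the opposite strand.

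UBE2T, the conjugating enzyme that hands ubiquitin to the pair, had the largest remaining difference from Parental in shAPE1 among the 37. It was at 10.6, 11.65 and 12.97 CPM in untreated cells, 33.2, 39.7 and 34.7 in survivors (rABS), 32.5, 30.04 and 35.8 in shCtrl cells and 24.96, 26.6 and 25.7 in shAPE1 cells. The shAPE1 libraries lay below every shCtrl library and above every Parental library. UBE2T rose 3.05-fold in rABS (log2 1.61 ± 0.11, SE, edgeR adjusted p = 1.78e-14) and was 2.19-fold above Parental in shAPE1 (adjusted p = 1.49e-10). Its fall with the hairpin (log2 -0.35 ± 0.10, edgeR adjusted p = 0.00579) was not called without shCtrl replicate 3 (0.0556).

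FANCM, the translocase that recognises stalled forks, measured 5.12, 5.52 and 4.01 CPM in the Parental libraries, 14.7, 12.9 and 15.3 in the rABS libraries, 15.6, 12.2 and 13.3 in the shCtrl libraries and 8.29, 6.98 and 7.81 in the shAPE1 libraries. The rABS and shCtrl libraries overlapped and the other groups stood apart. FANCM rose 2.91-fold in rABS (log2 1.54 ± 0.15, SE, edgeR adjusted p = 1.01e-10) and fell 1.77-fold with the hairpin (log2 -0.83 ± 0.14, adjusted p = 1.4e-05).

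FANCE, the subunit that docks FANCD2, was the exception. It was at 18.5, 16.6 and 20.7 CPM in untreated cells, 14.01, 14.02 and 13.5 in survivors (rABS), 12.5, 12.9 and 14.8 in shCtrl cells and 11.1, 11.65 and 10.7 in shAPE1 cells. All Parental libraries lay above all others. FANCE fell 1.34-fold in rABS (log2 -0.42 ± 0.11, SE, edgeR adjusted p = 0.00197) and was 1.67-fold below Parental in shAPE1 (adjusted p = 2.71e-06). Against shCtrl, shAPE1 was at log2 -0.27 ± 0.12 (edgeR adjusted p = 0.0755).

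The further core subunit genes FANCB, FANCC and FANCG rose 1.83-, 1.95- and 1.68-fold in rABS and fell 1.45-, 1.27- and 1.25-fold with the hairpin. The fall of FANCB (edgeR adjusted p = 0.0135) was lost without shAPE1 replicate 2 (0.0721). That of FANCC (edgeR adjusted p = 0.0247) was lost when any of 4 libraries was left out, shCtrl replicates 1 and 3 (0.0624 and 0.0866) and shAPE1 replicates 1 and 3 (0.0622 and 0.0546). FANCL, the ubiquitin ligase subunit, and FANCF, an adaptor, were called in none of the 5 comparisons. FANCF held between 19.4 and 23.0 CPM in every library, with a log2 difference of 0.06 ± 0.10 (SE) between shAPE1 and shCtrl.

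The Fanconi pair is the ubiquitinated clamp at the centre of the pathway, and its genes had similar courses. FANCD2 (chromosome 3, 10026414 to 10101930) measured 36.7, 38.7 and 39.5 CPM in the Parental libraries, 64.6, 62.7 and 63.6 in the rABS libraries, 48.4, 45.9 and 56.4 in the shCtrl libraries and 26.8, 29.9 and 29.8 in the shAPE1 libraries. FANCI (chromosome 15, 89243949 to 89317261) was at 72.6, 86.4 and 85.9 CPM in untreated cells, 145, 142 and 152 in survivors (rABS), 114, 98.9 and 105 in shCtrl cells and 61.1, 57.2 and 65.5 in shAPE1 cells. For both genes no groups overlapped, and shAPE1 was the lowest. FANCD2 rose 1.66-fold in rABS (log2 0.73 ± 0.09, SE, edgeR adjusted p = 8.61e-09) and fell 1.74-fold with the hairpin (log2 -0.80 ± 0.09, adjusted p = 8.49e-09). FANCI rose 1.79-fold (log2 0.84 ± 0.08, SE, edgeR adjusted p = 4.86e-11) and fell 1.73-fold (log2 -0.79 ± 0.08, adjusted p = 1.14e-09). Against Parental, both were 1.33-fold lower in shAPE1 (edgeR adjusted p = 0.000235 and 4.4e-05). The annotation lists a pseudogene of FANCD2 on the same chromosome, FANCD2P2, and processed pseudogenes of RBBP8, MRE11 and RAD51AP1 on other chromosomes. How reads that map to a gene and its pseudogene were counted is not given in the sources used here.

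The dissolution complex separates joined molecules without exchange. All 4 of its genes rose in rABS (median log2 1.37) and 3 fell with the APE1 hairpin (median -0.79). The helicase gene BLM (chromosome 15, 90717327 to 90816165) measured 16.2, 13.01 and 15.5 CPM in the Parental libraries, 41.6, 43.7 and 43.7 in the rABS libraries, 38.7, 29.3 and 33.4 in the shCtrl libraries and 16.1, 13.2 and 16.1 in the shAPE1 libraries. Its shAPE1 libraries overlapped those of Parental and lay far below those of rABS and shCtrl. BLM rose 2.90-fold in rABS (log2 1.54 ± 0.11, SE, edgeR adjusted p = 1.64e-13) and fell 2.23-fold with the hairpin, the largest fall of the 37 (log2 -1.16 ± 0.11, adjusted p = 5.88e-10). Its smaller fall after control transduction (edgeR adjusted p = 0.00809) was not called without shCtrl replicate 2 (0.083).

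TOP3A, the topoisomerase of the complex, was not called with the APE1 hairpin. It was at 18.3, 19.1 and 19.4 CPM in untreated cells, 45.5, 48.3 and 44.0 in survivors (rABS), 30.1, 33.6 and 35.9 in shCtrl cells and 33.6, 32.9 and 29.2 in shAPE1 cells. The shCtrl and shAPE1 libraries overlapped, with a log2 difference of -0.06 ± 0.09 (SE, edgeR adjusted p = 0.686). TOP3A rose 2.42-fold in rABS (log2 1.27 ± 0.10, SE, edgeR adjusted p = 2.9e-13) and fell 1.38-fold after control transduction (adjusted p = 0.000117). The oligonucleotide-binding subunit genes did fall with the hairpin. RMI2 measured 11.3, 11.2 and 11.6 CPM in the Parental libraries, 18.7, 17.2 and 16.4 in the rABS libraries, 22.5, 18.4 and 19.8 in the shCtrl libraries and 11.4, 12.7 and 12.6 in the shAPE1 libraries. RMI2 rose 1.53-fold in rABS (edgeR adjusted p = 2.12e-05) and fell 1.66-fold with the hairpin (adjusted p = 3.25e-06). RMI1 rose 2.78-fold and fell 1.80-fold (edgeR adjusted p = 1.67e-09 and 3.54e-05).

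The structure-specific nucleases cut joined molecules that dissolution leaves. All 3 genes rose in rABS (median log2 0.78). MUS81, the catalytic subunit, was at 31.2, 27.98 and 29.6 CPM in untreated cells, 53.5, 49.5 and 49.4 in survivors (rABS), 30.4, 34.1 and 31.6 in shCtrl cells and 36.4, 35.7 and 34.8 in shAPE1 cells. Its rABS libraries were the highest, the shAPE1 libraries lay above all Parental and shCtrl libraries, and the shCtrl and Parental libraries overlapped. MUS81 rose 1.72-fold in rABS (log2 0.78 ± 0.09, SE, edgeR adjusted p = 2.21e-09) and fell 1.58-fold after control transduction (log2 -0.66 ± 0.09, adjusted p = 2.33e-07). With the APE1 hairpin it was at log2 0.15 ± 0.09 against shCtrl, which was not called (edgeR adjusted p = 0.175). Against untransduced rABS it was at -0.51 (edgeR adjusted p = 7.18e-06), a difference that also holds the change from rABS to shCtrl.

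EME1, the obligate partner of MUS81, took another course. It measured 3.67, 3.98 and 3.71 CPM in the Parental libraries, 10.4, 12.1 and 11.9 in the rABS libraries, 11.2, 8.53 and 9.86 in the shCtrl libraries and 3.72, 5.57 and 4.31 in the shAPE1 libraries. The shAPE1 libraries overlapped those of Parental and lay below all shCtrl libraries. EME1 rose 3.02-fold in rABS (log2 1.60 ± 0.16, SE, edgeR adjusted p = 4.97e-10) and fell 2.17-fold with the hairpin (log2 -1.12 ± 0.16, adjusted p = 1.1e-06). SLX4, the scaffold that holds these nucleases, rose 1.201-fold in rABS (edgeR adjusted p = 0.00976), a call lost without Parental replicate 3 (0.0611). EME1 and MUS81 share 16.4% and 13.9% of their exonic bases with LRRC59 and CFL1 on the opposite strand.

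**Figure D3:**
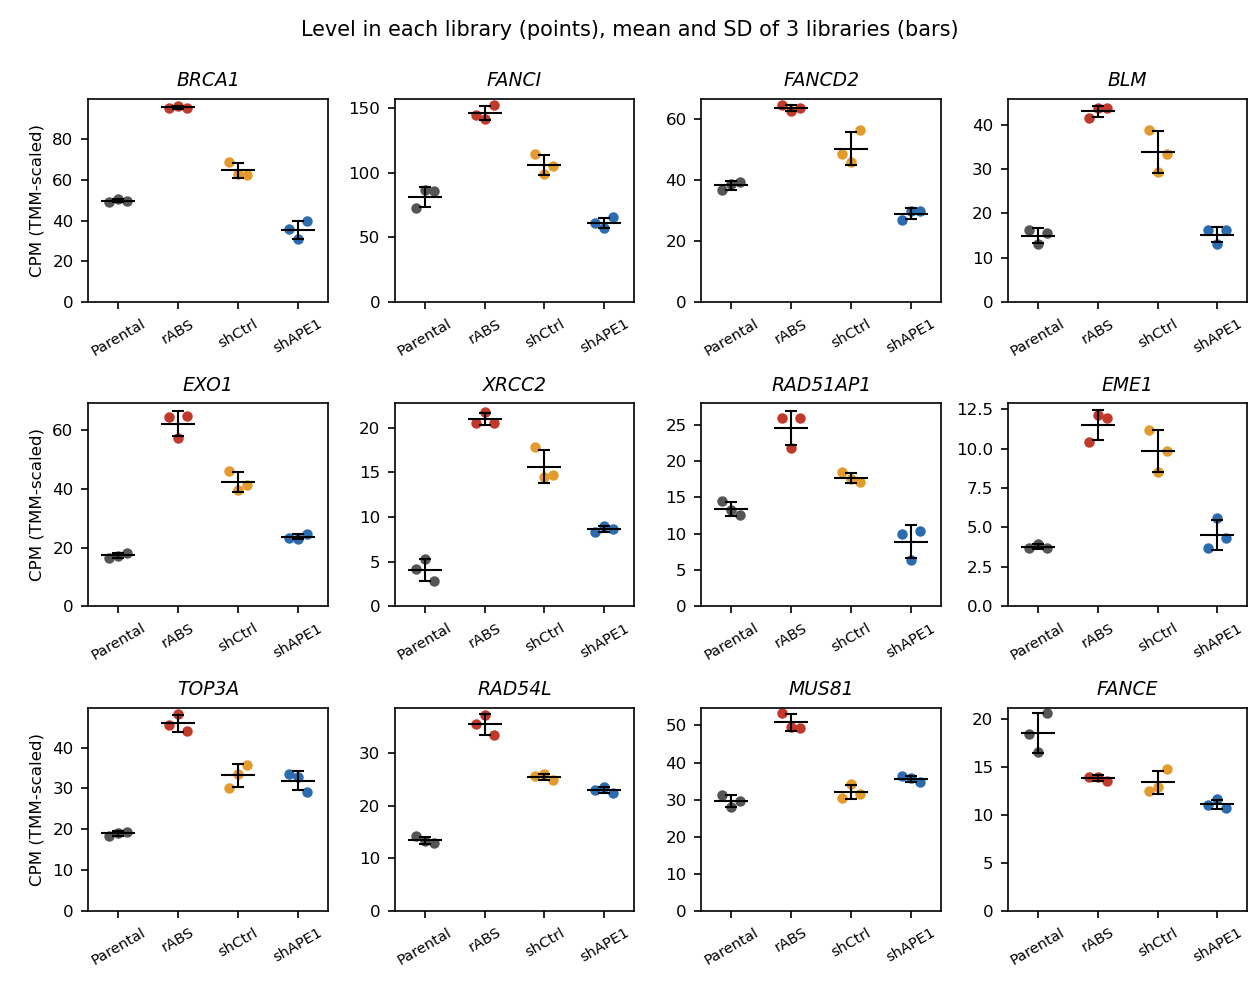
Level in CPM of 12 of the genes described, by group; each point is 1 library, and bars give the mean and SD of 3. FANCE is the only panel with its highest points in Parental, and the shAPE1 points of BLM and EME1 overlap those of Parental.

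Against untreated cells, the transduced groups kept part of the rise. In shCtrl 28 of the 37 were above Parental and 1 was below (FANCE), beside 27% and 26.1% of all tested genes (edgeR adjusted p under 0.05, median log2 0.59). In shAPE1 16 were above and 7 below, beside 26.2% and 27.5% of all tested genes, with a median of 0.22 against 0.00 for all genes. The 7 below were BRCA1, RBBP8, RAD51C, RAD51AP1, FANCE, FANCD2 and FANCI. The 16 above were BRIP1, 5 of the 6 resection genes, XRCC2, XRCC3, RAD54L, FANCA, FANCB, FANCM, UBE2T, TOP3A, SLX4 and MUS81. The other 14 were not called. Some of these calls rested on single libraries. Above Parental, NBN was not called without Parental replicate 1 (edgeR adjusted p = 0.0625) or shAPE1 replicate 1 (0.126), and FANCB without Parental replicate 3 (0.0904), shAPE1 replicate 1 (0.0927) or shAPE1 replicate 3 (0.0598). SLX4 was not called without Parental replicate 3 (edgeR adjusted p = 0.0544 in shAPE1 and 0.0899 in shCtrl), nor MUS81 without Parental replicate 2 (0.0544). Below Parental, RBBP8 was not called without shAPE1 replicate 2 (edgeR adjusted p = 0.125), nor RAD51C without Parental replicate 2 (0.0875). RMI1 was not called above Parental (edgeR adjusted p = 0.054) but was without Parental replicate 2 (0.000347). With all libraries kept, it was called with RLE (edgeR adjusted p = 0.0414) or upper-quartile scaling (0.0214). No filter (0.0191), a filter of 1 CPM in 3 libraries (0.0455), the fit of 6 libraries (0.0286) and DESeq2 (0.0365) also called RMI1. With limma-voom, a replicate block or the fold threshold it was not called. BRCA2 was called without shAPE1 replicate 2 (edgeR adjusted p = 0.0153).

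**Figure D4:**
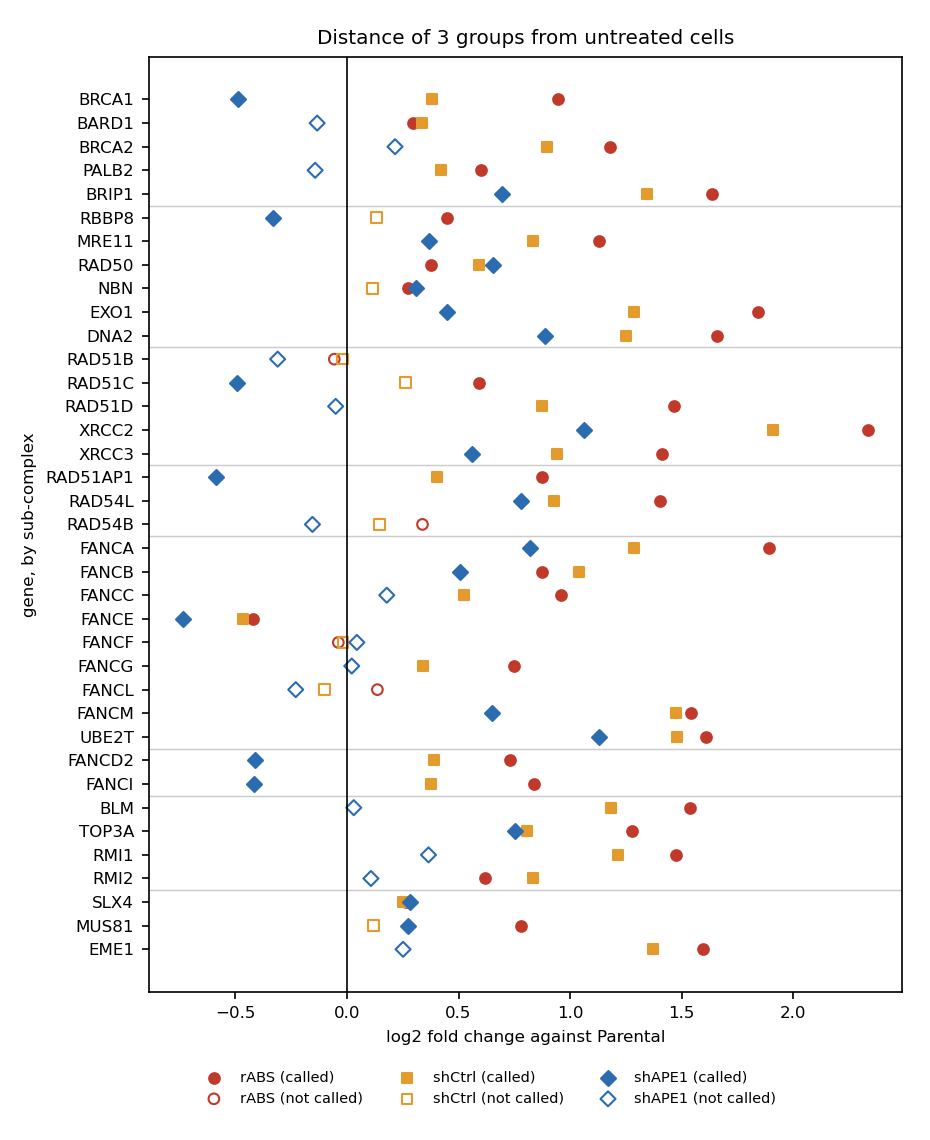
Log2 fold change of each gene against Parental in rABS, shCtrl and shAPE1, by sub-complex; filled symbols were called at an adjusted p under 0.05. The shAPE1 symbols lie left of the shCtrl symbols for most genes, and 7 filled ones lie left of 0.

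Levels between genes can be compared per kilobase of annotated exon. On that scale FANCI was the highest of the 37 in Parental, at 10.5 CPM per kb, and FANCM the lowest, at 0.577. In rABS the highest was UBE2T, at 21.7 CPM per kb. Across the 37 genes, the log2 change in rABS against Parental and the log2 change in shAPE1 against shCtrl had a Pearson r of -0.51. These 2 changes use different libraries, but the genes share annotation and depth and are not independent replicates, so no p is given. The change in rABS had an r of 0.11 with log2 exonic length.

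Other genes of recombination and crosslink repair moved in both directions. Of 48 listed genes outside the 37, 27 rose and 11 fell in rABS, beside 29.9% of all tested genes in either direction (edgeR adjusted p under 0.05). After control transduction 5 rose and 12 fell, beside 17.9% and 18.6%, and with the APE1 hairpin 3 rose and 22 fell, beside 17.8% and 18.8%. TONSL, which protects stalled forks together with MMS22L, rose 5.50-fold in rABS, from 24.0 to 131 CPM (mean, edgeR adjusted p = 3.61e-20). CHEK1, the checkpoint kinase, rose 3.47-fold, H2AX, the histone marked at breaks, 2.61-fold, and RFWD3, a ubiquitin ligase of crosslink repair, 2.36-fold. MMS22L fell 2.93-fold with the hairpin, from 72.4 to 24.7 CPM (edgeR adjusted p = 9.2e-14), RFWD3 1.80-fold, the helicase gene MCM8 1.84-fold and RPA1, which coats single-stranded DNA, 1.66-fold. After control transduction H2AX fell 1.88-fold, TONSL 1.71-fold and RPA1 1.38-fold, while ABRAXAS1, a scaffold of a BRCA1 complex, rose 1.66-fold.

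S phase genes changed in the same directions as the recombination and Fanconi genes, with larger medians. All 15 listed S phase genes rose in rABS (median log2 2.35), 14 fell after control transduction (median -0.56) and 14 fell with the APE1 hairpin (median -0.77). Their summed level was 863 ± 43.2 CPM in Parental, 3586 ± 97.1 in rABS, 2337 ± 5.86 in shCtrl and 1355 ± 56.5 in shAPE1 (SD, n = 3). MCM2, a subunit of the replicative helicase, rose 7.97-fold and PCNA, the sliding clamp, 5.63-fold in rABS, and both fell 2.21-fold with the hairpin. Of the 12 G2 and M phase genes, 8 rose and 2 fell in rABS (median log2 0.36), 6 rose and 3 fell after control transduction, and 10 fell with the hairpin. Their sums were 1856 ± 73.9, 2475 ± 46.9, 2502 ± 78.9 and 1841 ± 93.9 CPM in the same order. Of 12 genes of E2F and DREAM regulators, 9 rose and 2 fell in rABS and 8 fell with the hairpin. E2F1, an activating E2F, rose 5.20-fold and then fell 1.85-fold. Beside the counts of these 3 lists, 29.9% of all tested genes rose and 29.9% fell in rABS. After control transduction 17.9% rose and 18.6% fell, and with the hairpin 18.8% fell. The list counts were not tested against these shares. The part of cell cycle distribution in the changes of the 37 genes was not tested, and in bulk RNA a larger share of cells in S phase and more transcript per cell cannot be told apart.

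**Figure D5:**
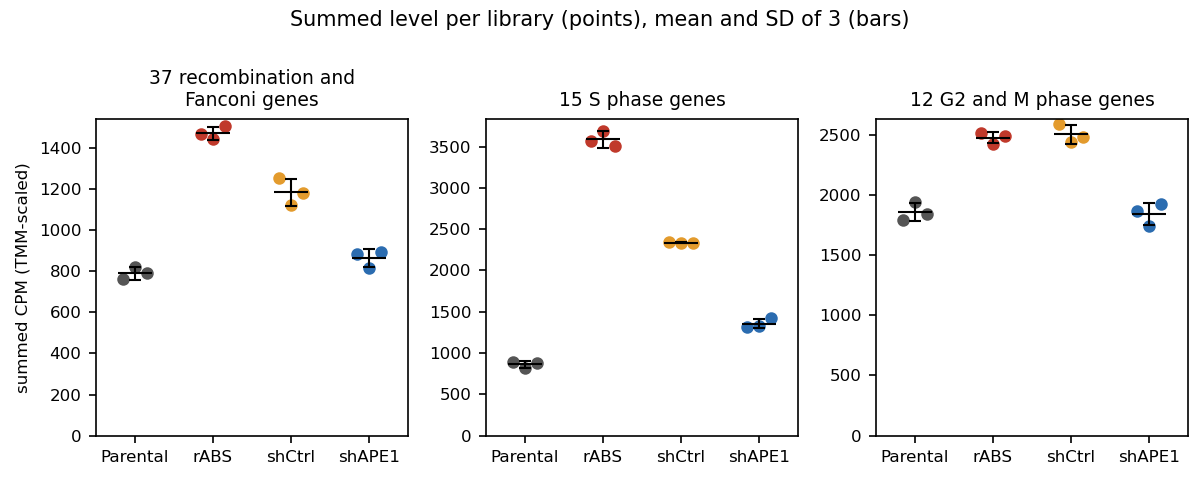
Summed level in CPM of the 37 recombination and Fanconi genes, 15 S phase genes and 12 G2 and M phase genes in each library (points), with mean and SD of 3 (bars). The first and second panels share the order rABS, shCtrl, shAPE1, Parental; in the third, shCtrl is level with rABS.

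All 37 genes, whether or not they fell with the APE1 hairpin, were read for the word TGCATTC in the 3' untranslated region. The 2 words of the same length that share 6 of its bases, shifted by 1 base to either side (ending in T or starting with C), were also read. Of the 37 genes, 3 carry such a word in the longest annotated region (MRE11, RAD50 and RAD51D), beside 26.7% of 18816 genes. Of these 3, 2 fell with the hairpin (median log2 -0.46 over the 3), and of the 34 without a word 24 fell (median -0.47). The words were picked in earlier work from these same changes, so the values are given as a description.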

How the data were processed

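RNA from 12 OE33 libraries (3 per group) was measured by poly(A) RNA-seq. The deposited matrix holds raw, unnormalized counts for each Ensembl gene. Per the submitters' processing notes, the authors used Trimmomatic 0.36, STAR 2.5.2b and featureCounts of Subread 1.5.2 with GRCh38. Annotation release, strand setting and treatment of multi-mapping reads: not given in the sources used.

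Genes passing filterByExpr over the 4 groups (minimum count 10, minimum total 15) were kept, 15805 of 57500. Libraries were scaled by TMM, which also scales the CPM values, except sums of epithelial and other cell type markers, which use unscaled totals. All 12 libraries entered 1 robust quasi-likelihood model with a mean for each group (edgeR 4.0.16; R 4.3.3; limma 3.58.1). Benjamini-Hochberg adjustment ran over all tested genes, with calls at an adjusted p under 0.05. A standard error is the log2 change divided by the square root of F. Library totals of 15736087 to 23010377 limit the precision of genes with low counts. Replicates also differed by more than counting noise (chi-square per degree of freedom of at least 2.91 between replicates). The procedure was run on counts simulated from the mean levels and spread of all 12 libraries. In the simulated rABS libraries, 50, 100 and 50 genes were changed 1.5-, 2- and 4-fold. Of these, 80%, 92% and 100% were recovered against Parental, with 8 of 190 calls false among 15418 genes. In the real comparison far more genes were called (29.9% rose and 29.9% fell), so these figures need not hold there.

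The members, lists and tests were chosen with earlier results of these data known. Genes are described with every library when among the 2 called genes of a sub-complex with the smallest adjusted p in rABS against Parental or in shAPE1 against shCtrl, or when called against the direction of most of the 37. Up to 4 genes per comparison and list are named by adjusted p from the other repair genes; S phase genes and E2F1 are given as examples. Counting motifs over all listed starts of a gene, and the first start as its alternative, was decided after the values were seen. Positions and exon overlaps come from GENCODE 29 (GRCh38) and promoters from RefSeq (GRCh38.p14). Alternatives were RLE and upper-quartile scaling, DESeq2 1.42.0, limma-voom, other filters, a replicate block, a fold threshold of 1.2, a fit of 6 libraries, rABS as the control of shAPE1, and leaving out each library.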

Additional observations from a re-analysis of the deposited data

How the results depend on the processing

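With DESeq2 and limma-voom, other scalings and other filters, counts of called genes among the 37 stayed within 1.5 times of those reported, except that 1 gene, RAD50, rose in shCtrl against rABS (in place of 0) under upper-quartile scaling, with a filter of 1 CPM in 3 libraries and in the fit of 6 libraries. Against a fold threshold of 1.2, 0 genes fell in rABS (FANCE, edgeR adjusted p = 0.0578) and 8 rather than 19 fell in shCtrl against rABS. The rises of BARD1, RAD50, NBN and SLX4 in rABS were not called against it. Nor were the falls of RBBP8, DNA2, XRCC3, FANCB, FANCC, FANCG and UBE2T with the APE1 hairpin (edgeR adjusted p from 0.0538 to 0.326). In shCtrl against Parental, BRCA1, BARD1, RAD51AP1, FANCG, FANCD2, FANCI and SLX4 were not called. With untransduced rABS as the control of shAPE1, 30 fell and 1 rose (RAD50). MUS81, not called against shCtrl, was then lower, at log2 -0.511 (edgeR adjusted p = 7.18e-06). Leaving out 1 library moved FANCM in shCtrl against rABS between -0.17 and 0.013 (without shCtrl replicate 2), and TOP3A in shAPE1 against shCtrl between -0.122 and 0.002 (without shAPE1 replicate 3; 0 without shCtrl replicate 3). The cause was not tested for any of these. Upper-quartile factors gave a median log2 change of -0.424 for the 37 with the APE1 hairpin and RLE factors -0.445. Leaving out each library gave 31 to 33 rises and 1 fall in rABS, 0 to 1 rises and 14 to 21 falls in shCtrl against rABS, and 0 to 1 rises and 23 to 25 falls in shAPE1 against shCtrl. The 1 rise was RAD50 without rABS replicate 3 in the former and NBN without shAPE1 replicate 2 in the latter. Against Parental, the ranges were 27 to 28 rises and 1 fall in shCtrl, and 14 to 17 rises and 6 to 7 falls in shAPE1.

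Same-numbered libraries did not deviate together (r from -0.167 to 0.109, 1 of 18 pairs over 0.1), so the numbers were not taken as pairs. A replicate block gave 32 rises and 1 fall in rABS, 0 and 20 in shCtrl against rABS, and 0 and 26 in shAPE1 against shCtrl. Depth limits the low genes most: RAD54B, at 2.30 to 4.89 CPM, had a standard error of 0.22 in rABS against Parental, where FANCI had 0.078.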
